A study of Homo sapiens with 6 samples.

Results

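HOX cluster genes were compared between parental SH-SY5Y cells and SY5Y-TR1 cells, a subline resistant to the ALK inhibitor TAE684. Every gene on the array whose only annotated symbol was HOX followed by a cluster letter and a paralogue number was taken, which gave 28 of 19775 genes. They were 1 gene of the HOXA cluster (HOXA2), 10 of the HOXB cluster, 9 of the HOXC cluster and 8 of the HOXD cluster, and they were read by 44 probe sets. Each gene was read from its brightest probe set, by the mean of the 6 arrays, and the other 16 are given separately. The other genes of the HOXA cluster, and HOXD3, were not analysed here.

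Both lines are neuroblastoma cells that carry the activating ALK F1174L mutation. SH-SY5Y was kept in medium alone. SY5Y-TR1 is 1 subclone, expanded from SH-SY5Y cells that had been selected for months under escalating TAE684, and it was kept in 1 μM of the drug, so that a property of the subclone and the presence of the drug cannot be told apart. Total RNA of each line was hybridised to 3 expression arrays. The labels call the 3 arrays of a line biological replicates, whereas the design text speaks of replicates run for each line, so p-values measure the spread between these arrays, which may be technical. The lines are compared in bulk RNA, in which fewer cells of a type and less RNA per cell cannot be told apart.

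HOX genes encode homeodomain transcription factors that give cells along the head-to-tail axis of the embryo their positional identity. Within a cluster they lie in the order in which they are used, from anterior genes with low paralogue numbers to posterior genes with high ones, and Polycomb complexes keep the unused stretches silent. The HOX proteins bind DNA together with TALE homeodomain cofactors of the PBX and MEIS families. Neuroblastoma arises from trunk neural crest, a tissue in which central HOX genes are used.

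The promoters of members that were above background in SH-SY5Y, were lower in SY5Y-TR1 and had an entry in the RefSeq promoter table (build GRCh38.p14) are printed first, since these HOXC and HOXD genes carry most of the differences described below. Each is the 250 bases before the annotated start, 5′ to 3′ on the plus strand. Capitals mark TAAT, the core bound by homeodomains, and TGATNNAT, a HOX-PBX composite motif, found on either strand, where they may overlap.
HOXC4 and HOXC5, chr12:54016638-54016887: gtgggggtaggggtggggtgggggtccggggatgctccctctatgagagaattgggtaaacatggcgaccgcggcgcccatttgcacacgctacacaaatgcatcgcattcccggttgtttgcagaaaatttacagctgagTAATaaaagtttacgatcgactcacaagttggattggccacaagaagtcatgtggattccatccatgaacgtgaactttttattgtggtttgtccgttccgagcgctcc
HOXD4, chr2:176151300-176151549: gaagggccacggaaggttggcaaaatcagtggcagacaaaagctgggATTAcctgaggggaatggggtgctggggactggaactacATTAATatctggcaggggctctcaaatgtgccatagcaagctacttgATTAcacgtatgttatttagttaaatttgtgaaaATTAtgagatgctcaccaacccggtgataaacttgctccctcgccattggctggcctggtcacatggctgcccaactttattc
HOXD8, chr2:176129455-176129704: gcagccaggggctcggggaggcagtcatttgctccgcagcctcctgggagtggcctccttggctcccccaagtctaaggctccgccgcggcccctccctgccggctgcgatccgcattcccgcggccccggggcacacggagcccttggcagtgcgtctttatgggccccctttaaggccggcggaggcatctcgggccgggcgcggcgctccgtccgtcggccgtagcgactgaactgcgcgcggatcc
HOXD10, chr2:176116528-176116777: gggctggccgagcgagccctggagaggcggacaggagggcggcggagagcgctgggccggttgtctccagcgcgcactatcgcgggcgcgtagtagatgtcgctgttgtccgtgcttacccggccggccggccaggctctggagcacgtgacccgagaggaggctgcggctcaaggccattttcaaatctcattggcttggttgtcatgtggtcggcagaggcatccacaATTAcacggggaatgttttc
HOXD11, chr2:176107030-176107279: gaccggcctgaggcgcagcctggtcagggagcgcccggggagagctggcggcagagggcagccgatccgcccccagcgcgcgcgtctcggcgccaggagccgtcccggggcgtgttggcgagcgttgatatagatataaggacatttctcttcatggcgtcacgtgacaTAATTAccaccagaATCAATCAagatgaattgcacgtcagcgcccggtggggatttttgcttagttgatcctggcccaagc

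HOXC4 and HOXC5 shared 1 window, since RefSeq gives HOXC4, HOXC5 and HOXC6 a single common start. The HOXD8, HOXD10 and HOXD11 windows were rich in CG dinucleotides, with 28, 23 and 23 of them, and that of HOXC4 and HOXC5 held 14, whereas that of HOXD4 held 4. The median was 18.5 over the 10 distinct HOX windows found and 11 over all 34943 promoter windows of the table. TAAT occurred in 47.5% of all windows and was found 5 times in that of HOXD4, at 2 places in that of HOXD11 and not in that of HOXD8. The composite motif occurred in 6.5% of all windows and, among those of HOX genes, in HOXA2, HOXB1 and HOXD11. The motif AGGTCA, a half-site of nuclear receptors such as the retinoic acid receptors, was in none of the 10 HOX windows and in 12.1% of all. Such matches describe letters in a window and are no evidence of binding. Promoters of 11 of the 28 genes were in the table.

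The HOX differences were counted cluster by cluster. In the HOXD cluster 7 of 8 genes (87.5%) were lower in SY5Y-TR1 at an adjusted p under 0.05. In the HOXC cluster 4 of 9 (44.4%) were, against 24.3% of all genes. In the HOXB cluster 1 of 10, HOXB2, was higher (10.0%, against 28.5% of all genes) and none was lower. HOXA2 was higher by a small amount at a background signal. By the level given below, 9 of 10 HOXB, 4 of 9 HOXC and 3 of 8 HOXD genes were also at background in both lines. A fall could hardly be read in those, although HOXC10, HOXD1 and HOXD13 among them are counted as lower. All tests were limma fits over all 19775 genes with Benjamini-Hochberg adjustment, and differences are given as log2 SY5Y-TR1 over SH-SY5Y.

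Over the 28 genes, 11 passed the adjusted p as lower (39.3%) and 2 as higher (7.14%), against 24.3% and 28.5% of all genes tested. The same 11 and 2 genes had lines whose arrays did not overlap, against 27.2% of all genes lower and 32.6% higher. With a change of at least 2-fold also required, 2 HOX genes were lower, HOXD4 and HOXD10, and 1 was higher, HOXB2, against 5.99% and 5.36% of all genes. The share of HOX genes past both limits was thus near that of all genes in each direction. The median log2 difference was 0.01 over the 28 HOX genes and 0.04 over all genes. By cluster it was -0.73 in HOXD, -0.05 in HOXC and 0.13 in HOXB.

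**Figure D1:**
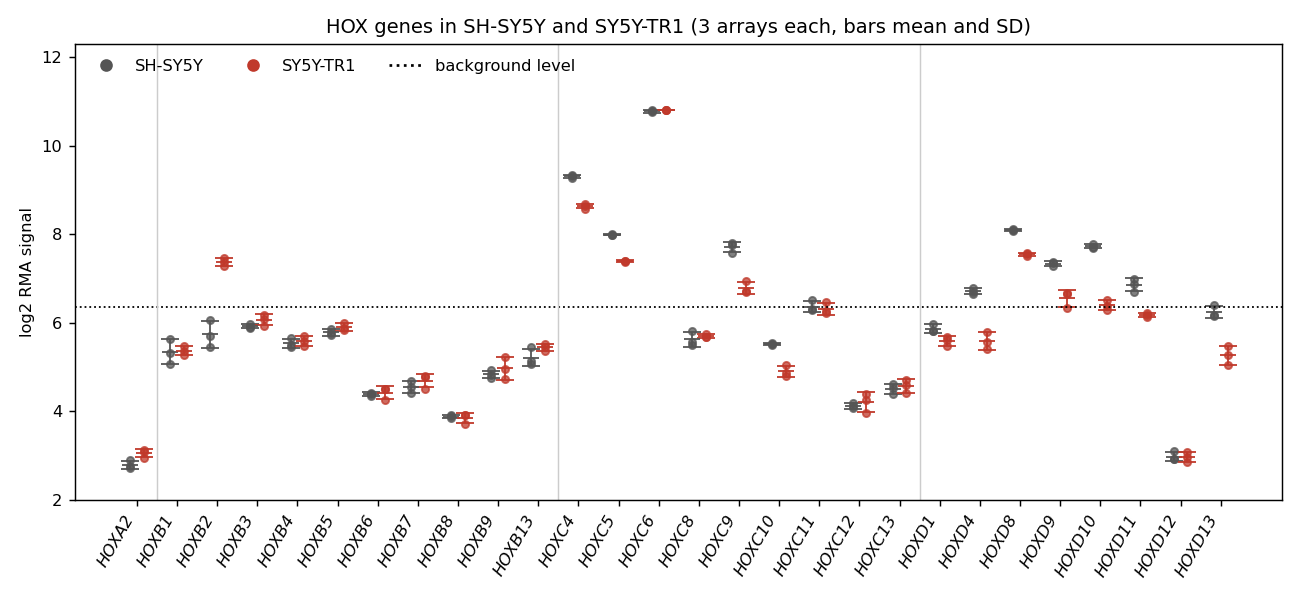
Log2 RMA signal of the 28 HOX genes, ordered by cluster and paralogue number, with each array as a point and the mean and SD of the 3 arrays of a line as bars. The dotted line is the background level of 6.34; HOXC4, HOXC5, HOXC9 and 5 HOXD genes above it in SH-SY5Y sit lower in SY5Y-TR1, HOXC6 overlaps between the lines, and HOXB2 crosses the line upwards.

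Whether a gene was expressed was read against 39 measured genes that mark liver, pancreas, muscle, skin, testis and other tissues, which should be silent in neuroblastoma cells. The 90th percentile of their means, 6.34 on the log2 scale, was used as the background level. Not all of the 39 were silent, since 5 exceeded that level in at least 1 line. The brightest means among them were 11.20 in SH-SY5Y and 11.59 in SY5Y-TR1. By line means, 10 HOX genes were above the background level in SH-SY5Y and 8 in SY5Y-TR1. They were HOXC4, HOXC5, HOXC6, HOXC9, HOXC11, HOXD4, HOXD8, HOXD9, HOXD10 and HOXD11 in SH-SY5Y, and in SY5Y-TR1 the same without HOXC11, HOXD4 and HOXD11 and with HOXB2. The other 17 genes were at background in both lines, so that a difference among them is one of dim signals. Of the 11 HOX genes above background in at least 1 line, 8 were lower at the adjusted p (72.7%) and 1 higher (9.09%). Over all genes above background in at least 1 line these shares were 36.7% and 38.7%.

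HOXD10, a posterior gene used in hindlimb and lumbar spinal cord, fell most among the HOX genes. It read 7.78, 7.71 and 7.69 in SH-SY5Y and 6.28, 6.51 and 6.38 in SY5Y-TR1. All SY5Y-TR1 arrays lay below all SH-SY5Y arrays and close to the background level. The means were 7.73 ± 0.05 and 6.39 ± 0.12 (SD, n = 3 each). HOXD10 fell by 1.33 on the log2 scale (SE 0.07, limma adjusted p = 3.54e-06), a 2.52-fold difference.

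HOXD4, a central gene expressed in hindbrain and cervical cord, went from a dim signal to background. It read 6.78, 6.69 and 6.65 in SH-SY5Y and 5.57, 5.79 and 5.40 in SY5Y-TR1, with no overlap. Since every SY5Y-TR1 array was at background, the fall is bounded as at least 1.29-fold, while the measured means, 6.71 ± 0.07 and 5.59 ± 0.20 (SD, n = 3 each), differ by -1.12 (SE 0.10, limma adjusted p = 6.17e-05). Its place past the 2-fold limit thus rests on values under the background level.

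HOXD8, HOXD9 and HOXD11 fell by less. HOXD8, a central gene, read 8.12, 8.08 and 8.09 in SH-SY5Y against 7.50, 7.56 and 7.58 in SY5Y-TR1. Its arrays agreed closely within a line, and the fall of 1.47-fold (log2 difference -0.55, SE 0.04, limma adjusted p = 3.02e-05) was far beyond that spread. HOXD9, a posterior gene, read 7.35, 7.38 and 7.27 against 6.64, 6.32 and 6.68. One SY5Y-TR1 array was just under background, and the lines did not overlap (log2 difference -0.79, SE 0.10, limma adjusted p = 0.000379, 1.73-fold). HOXD11, a posterior gene needed for forearm and kidney development, read 6.99, 6.70 and 6.87 against 6.18, 6.14 and 6.23. It was above background on all SH-SY5Y arrays and at background on all SY5Y-TR1 arrays, a fall of at least 1.42-fold (measured log2 difference -0.67, SE 0.08, limma adjusted p = 0.000274).

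The remaining HOXD genes were at background in both lines. HOXD13, the most posterior gene of the cluster and one needed for digit formation, read 6.40, 6.16 and 6.16 against 5.26, 5.04 and 5.47, a difference of -0.98 (SE 0.12, limma adjusted p = 0.000354). Of its arrays, 1 in SH-SY5Y reached the background level and none in SY5Y-TR1 did. HOXD1 differed by -0.28 (SE 0.07, limma adjusted p = 0.0170) at means of 5.86 and 5.59. HOXD12 had means of 2.97 in both lines and did not pass the test (difference 0.00, limits -0.18 to 0.18). The genes that fell thus lay on both sides of HOXD12 along the cluster, which runs from HOXD13 to HOXD1 on chromosome 2.

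HOXD10 fell by more than HOXD8. Within an array, the signal of HOXD10 minus that of HOXD8 was -0.37 ± 0.03 in SH-SY5Y and -1.15 ± 0.09 in SY5Y-TR1 (SD, n = 3 each), a change of -0.78. The arrays of the lines did not overlap in this difference. An exact two-sided permutation test gave p = 0.10, which is the smallest p that 3 arrays against 3 can give, and the pair was chosen after its values were seen. HOXD4 minus HOXD8, likewise chosen, went from -1.39 ± 0.05 to -1.96 ± 0.20, a change of -0.57, without overlap. The exact two-sided permutation p was again 0.10. That change is uncertain in size, since HOXD4 was at background on every SY5Y-TR1 array.

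**Figure D2:**
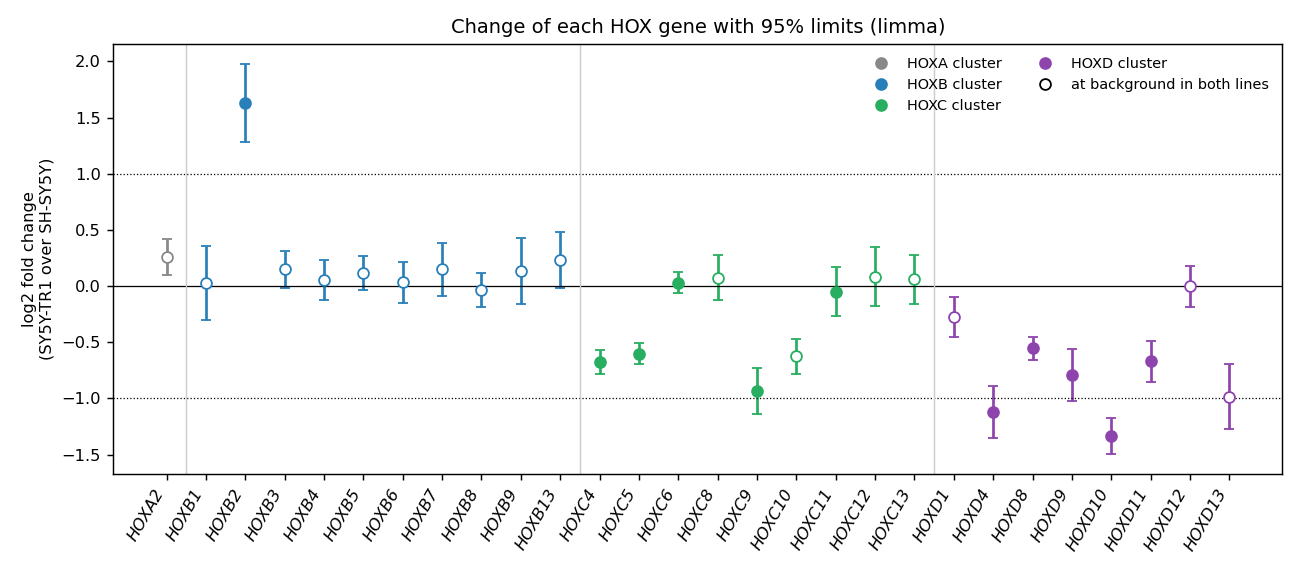
Log2 difference between the lines, SY5Y-TR1 minus SH-SY5Y, for each HOX gene with its 95% confidence limits from limma, coloured by cluster; open points are genes at background in both lines and dotted lines mark 2-fold. HOXD10 at -1.33 and HOXD4 at -1.12 lie below the lower line, HOXB2 at 1.63 lies above the upper one, and HOXB genes other than HOXB2 lie between -0.04 and 0.23.

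In the HOXC cluster HOXC4, HOXC5 and HOXC9 fell while HOXC6 did not pass the test. HOXC9, a posterior gene of the thoracic region, read 7.76, 7.58 and 7.80 in SH-SY5Y and 6.69, 6.71 and 6.93 in SY5Y-TR1. All SY5Y-TR1 arrays were lower, and all 6 were above background. Its means were 7.71 ± 0.12 and 6.78 ± 0.13 (SD, n = 3 each), and it fell by 0.93 on the log2 scale (SE 0.09, limma adjusted p = 8.57e-05), 1.91-fold and so short of the 2-fold limit.

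HOXC4 and HOXC5, central genes at the 3′ end of the cluster that share a transcript start, fell by similar amounts. HOXC4 read 9.31, 9.28 and 9.33 against 8.63, 8.58 and 8.67, and HOXC5 read 7.99, 7.97 and 8.01 against 7.40, 7.37 and 7.40. Both were well above background in both lines, and the spread within a line was small beside the gap between lines. The differences were -0.68 for HOXC4 (SE 0.04, limma adjusted p = 1.29e-05, 1.60-fold) and -0.60 for HOXC5 (SE 0.04, limma adjusted p = 1.19e-05, 1.52-fold).

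HOXC6, a central gene of the same stretch that is used at brachial and thoracic levels, read 10.81, 10.78 and 10.75 in SH-SY5Y and 10.81, 10.82 and 10.81 in SY5Y-TR1. The lines overlapped. The difference was 0.03 (SE 0.04, limma adjusted p = 0.564), with 95% limits of -0.06 to 0.12, so that a change of the size seen in HOXC4 or HOXC5 lay outside them. The signal of HOXC4 minus that of HOXC6 within an array went from -1.47 ± 0.04 to -2.18 ± 0.05 (SD, n = 3 each), and that of HOXC5 minus HOXC6 from -2.79 ± 0.04 to -3.42 ± 0.02. Changes in these differences were -0.71 and -0.63, and for HOXC9 minus HOXC6 the change was -0.96. By contrast HOXC4 minus HOXC5 moved by -0.08, from 1.32 ± 0.01 to 1.24 ± 0.03. For each of these the arrays of the lines did not overlap and the exact two-sided permutation p was 0.10, the smallest possible, with pairs again chosen after the values were seen. Although RefSeq gives the 3 genes 1 common start, their signals thus changed unequally. HOXC6 was read by 1 probe set, whose name marks shared sequence, so that HOXC6 has no value where such sets are left out. A probe set cannot tell which start a transcript used.

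The posterior HOXC genes were dim. HOXC11 read 6.30, 6.52 and 6.28 in SH-SY5Y and 6.47, 6.21 and 6.26 in SY5Y-TR1, with 1 array of each line above background. Its lines overlapped, and the difference of -0.05 (limits -0.27 to 0.17, limma adjusted p = 0.686) changed sign when 1 array was left out, as given in the closing section. HOXC10, a lumbar gene, differed by -0.63 (SE 0.07, limma adjusted p = 0.000156) with no overlap, but at means of 5.52 and 4.90, under the background level in both lines. HOXC8, HOXC12 and HOXC13 did not pass the test, with differences of 0.07, 0.08 and 0.06 at means between 4.12 and 5.70.

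HOXB2, an anterior gene of the hindbrain, was the HOX gene that rose most. It read 6.06, 5.45 and 5.69 in SH-SY5Y, all at background, and 7.37, 7.46 and 7.29 in SY5Y-TR1, all above it. The means were 5.74 ± 0.31 and 7.37 ± 0.08 (SD, n = 3 each), with the SH-SY5Y arrays the more spread. It rose by at least 2.04-fold (measured log2 difference 1.63, SE 0.15, limma adjusted p = 6.71e-05).

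No other HOXB gene passed the test on its brightest probe set. HOXB1, HOXB3, HOXB4, HOXB5, HOXB6, HOXB7, HOXB8, HOXB9 and HOXB13 were at background in both lines, with means between 3.84 and 6.06 and differences between -0.04 and 0.23. HOXB3, the next gene to HOXB2 along the cluster, had means of 5.92 and 6.06 on its brightest probe set (difference 0.15, limma adjusted p = 0.116). It passed the adjusted p as higher when its probe sets were averaged, when sets whose names mark shared sequence were left out, and without SY5Y-TR1 replicate 3. HOXA2, the paralogue of HOXB2 and likewise a hindbrain gene, differed by 0.26 (SE 0.07, limma adjusted p = 0.0151) at means of 2.78 and 3.05, far under the background level.

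Grouped by paralogue number, the anterior genes (1 to 3, n = 5 genes) held 2 higher, HOXA2 and HOXB2, and 1 lower, HOXD1. Of the 11 central genes (4 to 8), 4 were lower and none higher. Of the 12 posterior genes (9 to 13), 6 were lower and none higher. These are counts past the adjusted p, which 24.3% of all genes passed as lower and 28.5% as higher. At background in both lines were 4 of the anterior, 6 of the central and 7 of the posterior genes. HOXA2, HOXD1, HOXC10 and HOXD13, counted here as higher or lower, were among these dim genes. The median log2 differences of the anterior, central and posterior genes were 0.15, 0.03 and -0.34. The groups differ in cluster as well as in paralogue number, since 5 of the 12 posterior genes are HOXD genes, and the difference between groups was not tested.

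Of the 16 probe sets not used for their gene, all were at background in both lines, and they spoke for 13 genes. In a fit over all probe sets, that of HOXB3 rose from 3.93 to 4.91 (log2 difference 0.98, limma adjusted p = 0.000231), unlike the brighter probe set of the same gene. For HOXD10, 1 further probe set fell by 0.66, from 4.96 to 4.30, and the other was at 4.25 in both lines. Those of HOXD4 and of HOXD13 that differed most, by -0.50 and -0.44, did not pass the adjusted p, and a further one of HOXD13 differed by 0.04. The further probe set of HOXD9 differed by 0.10, against -0.79 on the brighter one. Probe sets of HOXD4, HOXD9, HOXD10 and HOXD13 thus disagreed in size, the dimmer ones showing less.

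**Figure D3:**
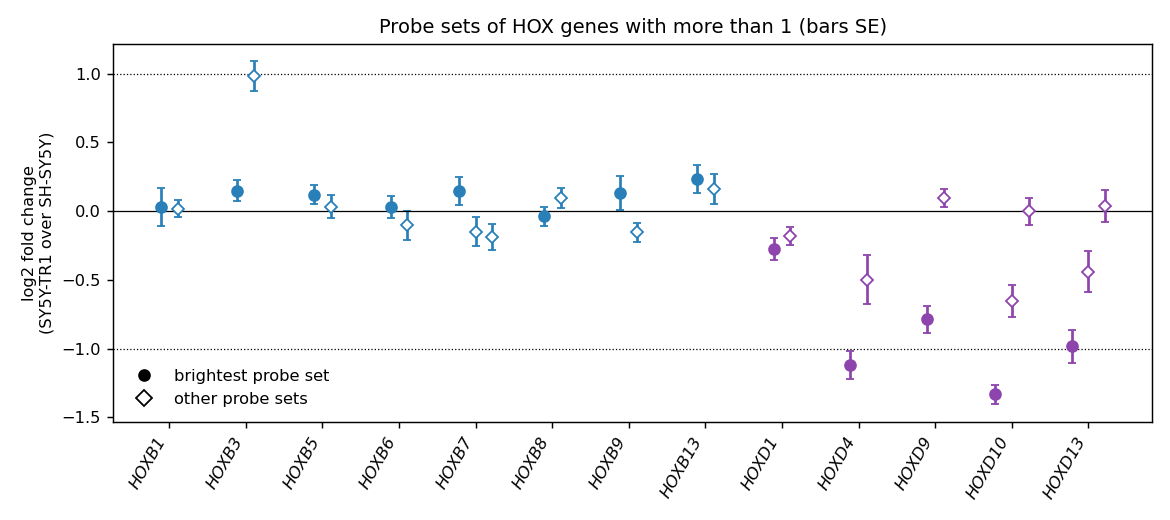
Log2 difference between the lines, SY5Y-TR1 minus SH-SY5Y, with its SE for every probe set of the 13 HOX genes that have more than 1; the brightest set of a gene is a filled circle and the others are open diamonds, all at background in both lines. The HOXD10 probe sets read -1.33, -0.66 and 0.00, and the dim HOXB3 probe set reads 0.98 where the brighter one reads 0.15.

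The cofactors with which HOX proteins bind DNA were for the most part lower in SY5Y-TR1. Values of 8 such TALE genes were used. At the adjusted p 5 were lower (62.5%, against 24.3% of all genes) and 1 higher (12.5%, against 28.5%). Past 2-fold as well, 2 were lower (25.0%, against 5.99% of all genes and 9.28% of those above background) and none was higher. The median log2 difference was -0.69 against 0.04 over all genes. Of the 8, 7 were above background in at least 1 line. Of all genes above it in at least 1 line, 36.7% were lower and 38.7% higher at the adjusted p. MEIS2, a cofactor also used in neural crest and sympathetic neurons, read 12.75, 12.80 and 12.69 in SH-SY5Y and 11.40, 11.47 and 11.48 in SY5Y-TR1. It fell by 1.29 on the log2 scale (SE 0.05, limma adjusted p = 8.14e-07), 2.44-fold, with no overlap. MEIS1 read 9.37, 9.48 and 9.43 against 8.33, 8.33 and 8.34 and fell by 1.09 (SE 0.05, limma adjusted p = 1.25e-06), 2.13-fold, and its further probe set gave -1.20.

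Below the 2-fold limit, and named after their values were seen, PBX3 fell by 0.89, PKNOX1 by 0.79 and PBX4 by 0.60, the last to background in SY5Y-TR1. Of the 5 probe sets of PKNOX1, 2 differed by -0.09 and -0.02 and did not pass. MEIS3 rose by 0.32 on the log2 scale (limma adjusted p = 0.00612). PBX2 differed by -0.12 and PKNOX2 by 0.13, and neither passed the test, although 2 dimmer probe sets of PBX2 were higher by 0.34 and 0.45. The summed linear signal of the 8 genes was 9740 to 10282 in SH-SY5Y and 4688 to 4891 in SY5Y-TR1, a sum that MEIS2 dominates.

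**Figure D4:**
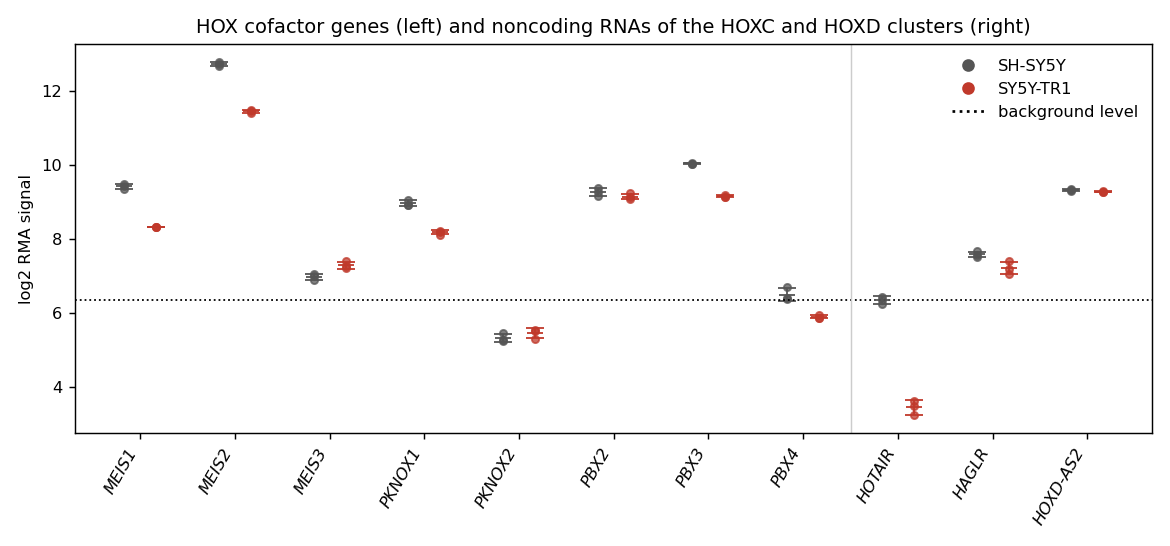
Log2 RMA signal of the 8 measured HOX cofactor genes and of 3 noncoding RNAs of the HOXC and HOXD clusters, each array a point with the mean and SD of the 3 arrays of a line; the dotted line is the background level. MEIS1, MEIS2, PBX3 and PKNOX1 sit lower in SY5Y-TR1 in every array, and the mean of HOTAIR drops from barely above the background level to 3.46.

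Noncoding RNAs made within the clusters were measured for 12 of 24 listed. HOTAIR, which is transcribed from the HOXC cluster between HOXC11 and HOXC12, read 6.45, 6.25 and 6.37 in SH-SY5Y and 3.64, 3.50 and 3.24 in SY5Y-TR1. The difference was -2.90 (SE 0.11, limma adjusted p = 7.77e-07) with no overlap. As measured this is 7.44-fold, and HOTAIR was called lower. Its SH-SY5Y mean of 6.35 was barely above the background level, so against that level the fall is bounded only as at least 1.01-fold. Its neighbours HOXC11 and HOXC12 did not pass the test.

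In the HOXD cluster HAGLR, transcribed beside HOXD1, read 7.67, 7.58 and 7.52 in SH-SY5Y against 7.20, 7.40 and 7.07. It fell by 0.36 on the log2 scale (SE 0.09, limma adjusted p = 0.0118). HOXD-AS2, an antisense RNA of the same cluster, had means of 9.33 and 9.28 and a difference of -0.05 (limits -0.15 to 0.04, limma adjusted p = 0.322), while the coding genes HOXD8 and HOXD9 fell. HOTTIP of the HOXA cluster and HOXB-AS3 of the HOXB cluster passed the test as higher, by 0.33 and 0.15, at background in both lines. The other 7 listed RNAs that were measured did not pass on their brightest probe sets. The dimmer probe set of HOXB-AS1, an antisense RNA of the HOXB cluster, did pass in the fit over all probe sets, with means of 3.48 and 4.35 (log2 difference 0.87, limma adjusted p = 0.00393) and no overlap, at background in both lines.

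Of 15 genes that flank the clusters 5 were higher and 4 lower at the adjusted p, shares of 33.3% and 26.7% that lay near the 28.5% and 24.3% of all genes, with a median of 0.04 that equals that of all genes. Beside the HOXD cluster, LNPK differed by 0.04 and MTX2 by -0.12, neither past the test, and ATF2 by -0.21. Beside the HOXC cluster, SMUG1, a DNA repair glycosylase, rose by 0.41, CALCOCO1 by 0.22, ATP5MC2 fell by 0.25 on the log2 scale, and CBX5, which encodes the heterochromatin protein HP1 alpha, fell by 1.00 (SE 0.07, limma adjusted p = 1.27e-05), 2.01-fold. No flanking gene of the HOXB cluster, SKAP1, SNX11, PRAC1 or TTLL6, passed the test.

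The largest flanking changes were beside the HOXA cluster, of whose genes HOXA2 alone was analysed here. SKAP2, an adaptor of SRC-family kinase signalling, read 6.17, 6.23 and 6.14 in SH-SY5Y and 7.74, 7.75 and 7.95 in SY5Y-TR1, a rise of at least 2.77-fold (measured log2 difference 1.63, SE 0.07, limma adjusted p = 1.29e-06). SNX10, an endosomal sorting nexin, read 7.82, 7.87 and 7.73 against 4.86, 4.91 and 4.68, a fall of at least 2.75-fold (measured log2 difference -2.99, SE 0.07, limma adjusted p = 1.23e-07). HIBADH and TAX1BP1, on the other side of the cluster, rose by 0.26 and 0.29.

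Genes that control HOX expression were listed in 3 groups. Of the Polycomb genes, whose products silence HOX clusters, 24 of 28 were measured, and 15 were lower and 6 higher at the adjusted p, with a median of -0.31. These are shares of 62.5% and 25.0%, against 24.3% and 28.5% of all genes. All 24 were above background in at least 1 line. Of all genes above it in at least 1 line, 36.7% were lower and 38.7% higher. Past 2-fold, 4 Polycomb genes were lower (16.7%, against 5.99% of all genes and 9.28% of those above background). In the other direction 1 was higher (4.17%, against 5.36% and 8.53%). EZH2, the methyltransferase that places H3K27me3, fell from 11.10 ± 0.02 to 9.04 ± 0.03 (SD, n = 3 each), a log2 difference of -2.06 (SE 0.04, limma adjusted p = 5.67e-08), 4.18-fold. PHF19 and MTF2, which recruit that complex, fell by 1.81 and 1.03, and CBX2, a reader of the mark, by 1.80. PCGF5, a subunit of a variant complex, rose by 1.20.

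Of 13 Trithorax and H3K27 demethylase genes, which act against that silencing, 7 were lower at the adjusted p (53.8%, against 24.3% of all genes) and none higher (against 28.5%), with a median of -0.27. The other 6 did not pass. All 13 were above background in at least 1 line, and of all such genes 36.7% were lower and 38.7% higher. PSIP1, a chromatin tether of the MLL complex, fell by 1.19 on the log2 scale (SE 0.06, limma adjusted p = 2.52e-06), 2.28-fold. Upstream regulators, chiefly the retinoic acid receptors and CDX factors, were measured for 13 of 15 genes, with 3 higher and 3 lower (23.1% each, against 28.5% and 24.3% of all genes) and a median of 0.10. None passed 2-fold. The brightest were KAT6A, an acetyltransferase that sustains HOX expression, which fell by 0.54, and RXRB, a retinoid receptor, which rose by 0.33.

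The state of the 2 lines is given as a setting for these values. Array medians lay between 5.56 and 5.59. The correlation over all probe sets other than controls was 0.997 to 0.998 within a line and 0.959 to 0.960 between lines. Of 11 measured neuroblastoma identity genes 9 were above background in SH-SY5Y and 6 in SY5Y-TR1. TH was at background in both, and TFAP2B, DBH, DDC and CHRNA3 were at background in SY5Y-TR1. MYCN, named after its values were seen, crossed the level upwards, from a mean of 6.23 to 6.42, and did not pass the test. The summed linear signal of the 11 genes was 22743 to 24077 in SH-SY5Y and 4791 to 4955 in SY5Y-TR1. Of 13 fibroblast and mesenchymal markers 7 were higher (53.8%, against 5.36% of all genes) and 3 lower (23.1%, against 5.99%) past both limits. Their summed signal was 21447 to 22331 in SH-SY5Y against 47303 to 51500 in SY5Y-TR1. Every measured Schwann cell, endothelial, blood cell and epithelial marker (5, 6, 6 and 8 genes) was at background in both lines, with summed signals of 204 to 214, 182 to 206, 198 to 206 and 197 to 220 in SH-SY5Y and of 214 to 226, 220 to 232, 206 to 219 and 248 to 260 in SY5Y-TR1. The part of the identity and mesenchymal marker shifts in the HOX differences was not tested. AXL, the receptor kinase that the study follows, was higher in SY5Y-TR1 by 3.76 on the log2 scale, and TWIST2 by 2.07.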

How the data were processed

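Total RNA of 3 SH-SY5Y and 3 SY5Y-TR1 samples was hybridised to 6 Affymetrix U133 Plus 2.0 arrays, 1 for each sample. The values deposited by the authors are log2 signals from RMA, run in Affymetrix Expression Console per their processing notes (version not given in the sources used here). RMA corrects the background, quantile-normalizes the arrays together and summarizes the probes of a set, so that an overall shift of RNA amount is removed and dim signals are compressed. Scanner files and scan dates were not used here, and every group came from the labels.

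Of 54675 probe sets, 62 controls were left out. Among the other 54613, 41091 had 1 gene symbol in the platform annotation, 1801 had several and 11721 had none here. No gene was named from a set with several, 3 of which list HOXD genes. Each of 19775 genes was represented by its set with the highest mean over the 6 arrays. Signals were fitted with limma 3.58.1 in R 4.3.3 (lmFit and eBayes) over all genes, with Benjamini-Hochberg adjustment over all of them and no block for the replicate number. The calls needed an adjusted p under 0.05 together with a change of 2-fold or more. The fit was tested on simulated data before use. The number of arrays limits the precision. A gene was above background in a line where its mean exceeded the 90th percentile of the means of 39 tissue-restricted genes, and where every array of the dimmer line was at background its fold was bounded by that level.

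Array values were given for HOX genes called or above background. Of the other lists, at most the 4 called genes with the largest change in each direction were named, or the 2 brightest where none was called, and every noncoding RNA and flanking gene could be. The members and lists were chosen with earlier results of these data known. Promoters came from a RefSeq table of GRCh38.p14, which also gave the order of the clusters. The alternatives tried were averaging every probe set of a gene, centring on 20 housekeeping genes, leaving out sets whose names mark shared sequence, a second quantile normalization, a filter on dim probes, raising values to the background level, a replicate block, an intensity trend with robust variance, the methods' t-test, other limits of fold, p and background, a fit of all probe sets and leaving out each array.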

Additional observations from a re-analysis of the deposited data

How the results depend on the processing

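HOXB2 was called higher under every alternative run. It has 1 probe set, so that averaging probe sets or leaving out those with shared sequence could not change its log2 difference. HOXD10 and HOXD4 were called lower under all but those named here. With every probe set of a gene averaged, 0 HOX genes were called lower (log2 difference -0.66 for HOXD10 and -0.81 for HOXD4), since their other sets are dim. The adjusted p was still passed by 11. Where dim values were raised to the background level 1 was called, HOXD10, and HOXD4 then differed by -0.36. At a fold of at least 1.5 the count was 9 of 28, against 2162 of all 19775 genes, adding HOXC4, HOXC5, HOXC9, HOXC10, HOXD9, HOXD11 and HOXD13. Centring on housekeeping genes gave 3. Leaving out 1 array gave 2 to 4 genes lower, with 4 without SH-SY5Y replicate 2 or without SY5Y-TR1 replicate 3, both with HOXC9 past 2-fold, and 3 without SH-SY5Y replicate 3. The count past the adjusted p as lower, 11, was 8 to 11 throughout. As higher, 2 became 1 under the filter on dim probes, the raised background, the adjusted t-test of the methods and an adjusted p under 0.01, became 3, with HOXB3 added, where probe sets were averaged or sets with shared sequence were left out, and was 1 to 4 when an array was left out, with 4 without SH-SY5Y replicate 2 and 1 without SH-SY5Y replicate 3. The difference of HOXC11 ranged from -0.1277 to 0.0249 when an array was left out, and turned above 0 without SH-SY5Y replicate 2 (0.0249) or SY5Y-TR1 replicate 2 (0.0013). With the background level at the 75th percentile 20 HOX genes were above it, against 11, and 9 at the 95th.

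No pairing by replicate number was seen, since the deviations of same-numbered arrays correlated at 0.00, 0.02 and 0.03. Those of differently numbered arrays correlated at -0.07 to 0.047. Such values cannot tell whether the cultures were handled in pairs. With the replicate number as a block 1 HOX gene was called higher and 2 lower, as without it, and 10 in place of 11 passed the adjusted p as lower. Over all genes the block left 1060 higher and 1185 lower calls. Of 208 values of 11 named HOX genes under 19 alternatives, 196 kept their direction and side of the limits. Several alternatives change only the test, the limits or the genes tested. They leave the log2 difference as it is, so that its direction was fixed in advance there. Dim signals limit what can be said of the 17 genes at background in both lines.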

Other observations

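Homeobox genes outside the HOX clusters that are related to them were for the most part dim. Of 7 measured EVX, ParaHox, MNX and GBX genes 1 was lower at the adjusted p (14.3%, against 24.3% of all genes) and none was called. GBX2, a homeobox gene of the hindbrain boundary, had a mean of 7.01 in SH-SY5Y and was at background in SY5Y-TR1 (at least 1.58-fold lower, measured log2 difference -0.90, limma adjusted p = 0.000197), and EVX1, which lies next to the HOXA cluster, had means of 6.35 and 6.40 and did not pass. Of 8 measured TALE homeobox genes that are not HOX cofactors 2 were higher and 2 lower at the adjusted p (25.0% each, against 28.5% and 24.3% of all genes). TGIF2, a repressor of TGF-beta and retinoid responses, was the 1 called (12.5%, against 5.99% of all genes called lower). It fell from 8.95 ± 0.05 to 7.77 ± 0.01 (SD, n = 3 each), 2.27-fold. IRX5, named after its values were seen, differed by -0.74, and IRX3, its neighbour in the IRXB cluster, by -0.11, which did not pass.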
